A study of Mus musculus with 55 samples.

Results

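The homeobox genes Pitx1, Pitx3, Barx1, Barx2, Otx1 and Otx2 were followed through 16 bulk RNA-seq libraries of whole mouse islets and in a chromatin-state map of wild-type islets. They are 6 of 47937 counted genes and were listed by name. The list was chosen by the levels of these genes in βEedKO against control libraries, which were known from an earlier look at the same counts, so the differences between these genotypes given here are descriptions and not tests. Of the 6, Pitx1, Barx1 and Barx2 passed the filter on low counts; Pitx3, Otx1 and Otx2 did not and are described by their reads.

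The libraries came from male C57B6/J mice of 3 genotypes (wild type, heterzygous for Eed as the labels spell it, and Eed -/-, here βEedKO) at 8 and 25 weeks of age, each a sample of hand-picked whole islets that had been isolated with collagenase and kept in culture medium. There were 3 wild-type, 3 heterozygous and 3 βEedKO libraries at 8 weeks, and 3, 2 and 2 at 25 weeks. Eed encodes a core subunit of PRC2, the complex that writes H3K27me3. In the βEedKO line, floxed Eed is deleted by Cre from a rat insulin promoter (RIP-Cre), which becomes active in β cells late in embryogenesis, so the other cells of the islet keep their Eed and also contribute reads. Libraries could hold the islets of more than a single animal, and those of 25-week-old βEedKO mice were always pooled from several. The methods call the libraries biological replicates, and p-values measure the spread between them.

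Pitx, Otx and Barx proteins are transcription factors that bind DNA through a homeodomain and give regional identity to embryonic tissues. Pitx1 patterns the hindlimb and the pituitary, Pitx3 acts in the lens and in midbrain dopamine neurons, Barx1 in stomach, tooth and facial mesenchyme, and Barx2 in muscle and in ectoderm-derived organs. Otx1 and Otx2 build the forebrain, the midbrain and the sense organs. In many differentiated cells such genes carry both the activating mark H3K4me3 and the Polycomb mark H3K27me3, a configuration called bivalent.

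The promoters of 3 members show how different the DNA under bivalent chromatin can be. They are those of the members found in the RefSeq promoter table of GRCm38.p6, namely Barx1, Pitx3 and Otx2 (3 of 6 matched), and each run holds the bases from 250 to 51 before a RefSeq start site, 5′ to 3′ on the strand of the gene, with CG dinucleotides in capitals. The Barx1 stretch lies at chr13:48662786-48662985 (plus strand), that of Pitx3 at chr19:46148376-46148575 (minus strand) and that of Otx2 at chr14:48667695-48667894 (minus strand). No annotated exon overlapped them.
Barx1: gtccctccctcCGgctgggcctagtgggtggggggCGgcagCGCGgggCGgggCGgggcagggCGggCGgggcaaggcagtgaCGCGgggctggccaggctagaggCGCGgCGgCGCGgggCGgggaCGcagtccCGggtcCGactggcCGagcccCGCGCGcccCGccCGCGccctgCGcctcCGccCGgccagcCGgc
Pitx3: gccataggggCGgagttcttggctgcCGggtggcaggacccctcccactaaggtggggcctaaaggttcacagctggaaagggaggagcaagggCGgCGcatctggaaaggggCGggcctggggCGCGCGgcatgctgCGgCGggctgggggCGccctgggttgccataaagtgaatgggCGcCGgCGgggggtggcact
Otx2: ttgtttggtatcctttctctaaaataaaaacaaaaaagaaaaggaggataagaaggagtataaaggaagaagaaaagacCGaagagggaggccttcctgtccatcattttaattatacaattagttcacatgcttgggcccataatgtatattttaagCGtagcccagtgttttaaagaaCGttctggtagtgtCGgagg

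The printed Barx1 run held 30 CG dinucleotides, that of Pitx3 14 and that of Otx2 4. Over the whole 300-base window the numbers were 50, 20 and 6, against a median of 7 over the windows of 27025 genes, and 99.1% of these genes had fewer than Barx1. The other 3 RefSeq start sites of Otx2 had 8, 16 and 11. Among genes whose RefSeq start lay in bivalent state L the median was 16 (2378 genes), and in bivalent state M it was 9 (1310 genes). Barx1 and Pitx3 were thus above the median of state L, Barx1 by far, and the most upstream Otx2 window was below that of state M. This Otx2 window belongs to a RefSeq start at 48667644, inside the gene as annotated for the state map, which starts at 48673819. Bases at that annotated start were not examined. The letters TAATCC, which bicoid-type homeodomains such as those of the Pitx and Otx families are known to recognise, occurred on neither strand of the Barx1 and Pitx3 windows nor in the most upstream Otx2 window, and 1 time in the other Otx2 windows. Of all genes 7.16% had a match in the same length.

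In wild-type islets the start sites of all 6 genes lay in a bivalent state. The deposited map assigns to each 200 bp bin of the autosomes a letter from A to X, made by the authors with replicates averaged, and it holds no level and no spread. State L (bivalent, high in H3K4me3) held the start sites of Pitx3, Barx1 and Barx2, and state M (bivalent, high in H3K27me3) those of Pitx1, Otx1 and Otx2. Of the annotated Otx1 transcripts 2 start in state L and 1 in state M, and the gene start used here lay in M. Of 28877 annotated start sites, 10.5% lay in state L and 5.62% in state M, states that cover 0.541% and 1.23% of the mapped genome.

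Around these start sites the map showed long stretches of states K to O that differed from gene to gene. The paper calls L, M, N and O bivalent or Polycomb states. Its text does not name K, the state at the start site of Ins2. K was joined to the others here, so the widths are not those of Polycomb states alone. Otx2 (ENSMUSG00000021848.16, chromosome 14, 48657677 to 48673819, minus strand) lay in an unbroken stretch of 67800 bp, wider than that of 94.8% of start sites in state M, and 100% of the gene was in state M. Pitx1 (ENSMUSG00000021506.7, chromosome 13, 55825051 to 55836192, minus strand) lay in 36000 bp and was 98.2% state M. Otx1 (ENSMUSG00000005917.15, chromosome 11, 21994764 to 22002897, minus strand) lay in 27600 bp and was 80.3% state M. The median for state M was 18200 bp over 1624 start sites.

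The state L genes had narrower stretches except for Barx2. Barx2 (ENSMUSG00000032033.11, chromosome 9, 31846044 to 31913462, minus strand) lay in 32400 bp, wider than 92.5% of start sites in state L, although 58.4% of this long gene was in the Polycomb-repressed state O. The Barx2 stretch crosses state K from 2262 to 4462 bp downstream of the start, and its width without K was not computed. Pitx3 (ENSMUSG00000025229.15, chromosome 19, 46135685 to 46148326, minus strand) lay in 21200 bp. Barx1 (ENSMUSG00000021381.4, chromosome 13, 48662998 to 48666507, plus strand) lay in 12800 bp and was 94.2% state M apart from the bins at its start. The Barx1 stretch was cut by short runs of state R, from -4997 to -4597 bp and from 8203 to 8803 bp of the start. State M resumed beyond both runs, and a width across them was not computed. The median for state L was 7400 bp over 3021 start sites. The width of the stretch did not order the genes by their level in βEedKO islets, since Otx2, with the widest, stayed at or near 0 reads.

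**Figure D1:**
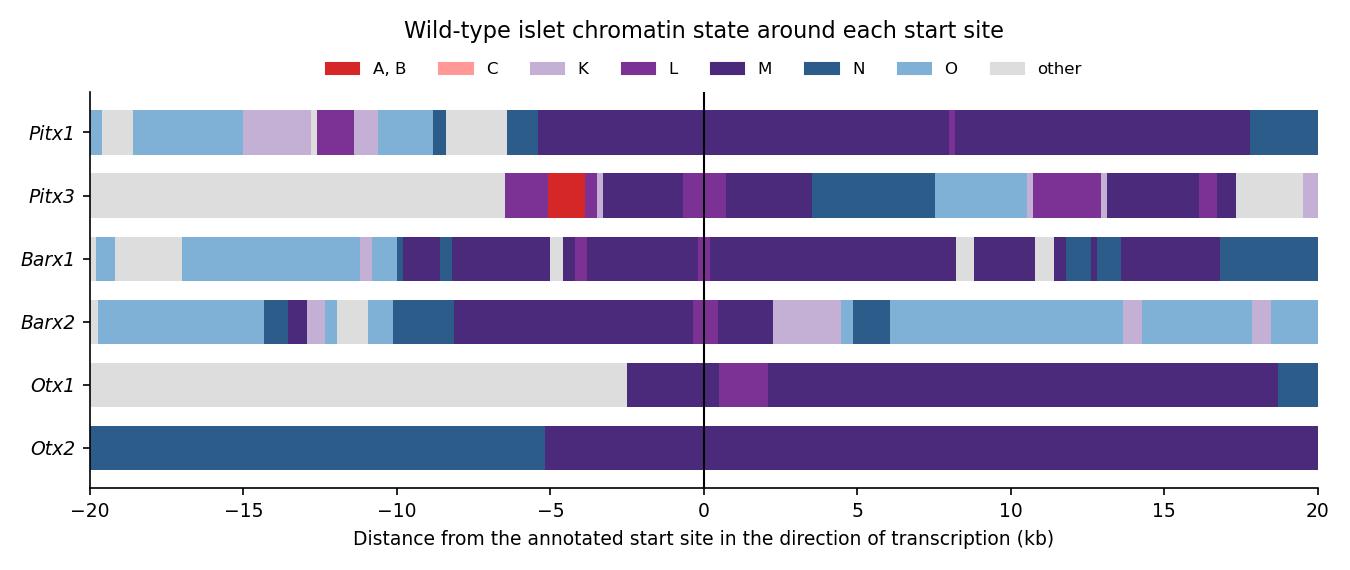
Chromatin state in wild-type islets over 20 kb on each side of the annotated start site of each gene (x axis, distance in kb in the direction of transcription; 1 row per gene; colours are state letters, grey any other state). All 6 start sites lie in state L or M, and the stretch of states K to O at Otx2, which runs past the drawn window, is the widest, at 67800 bp.

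Pitx1 and Barx1 were close to silent in control islets and reached means of 26.1 and 19.2 CPM (counts per 1e6 reads, after TMM scaling of library sizes) in βEedKO islets at 25 weeks. Barx2 was already readable in wild type and was higher in βEedKO islets at both ages, with ratios of pooled reads of 11.6 (95% counting interval 9.04 to 15.0) at 8 weeks and 14.9 (9.16 to 25.9) at 25 weeks. Otx1 was read a few times in βEedKO at 25 weeks, and Pitx3 and Otx2 had at most 2 reads in any library.

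Pitx1 had 1, 0 and 1 read in the wild-type libraries at 8 weeks and 0, 1 and 0 at 25 weeks. Heterozygous libraries had 0, 0 and 0 reads at 8 weeks and 1 and 0 at 25 weeks. The βEedKO libraries had 10, 9 and 4 reads at 8 weeks, or 0.474, 0.451 and 0.346 CPM, and 279 and 769 reads at 25 weeks, or 21.2 and 31.0 CPM. At each age every βEedKO library lay above every control library, and the 25-week βEedKO libraries lay above all others. Against wild type alone, every βEedKO library was above for 6.54% of tested genes at 8 weeks and 24.7% at 25 weeks. The share against both control genotypes was not computed. Their mean was 26.1 ± 6.93 CPM (SD, n = 2), against 0.424 ± 0.068 CPM (SD, n = 3) in βEedKO at 8 weeks. The SD at 25 weeks depends on the scaling. These 2 libraries had the lowest and the highest TMM factor, 0.760 for replicate 2 and 1.497 for replicate 3. Their total counts were 17308262 and 16565560, so scaled by total count alone they would stand further apart, for Barx1 and Barx2 as well. Against the single read of the 25-week wild-type group the ratio was 851, with a 95% counting interval from 152.5 to 33661, and within βEedKO the ratio of 25 to 8 weeks was 63.2, from 41.9 to 100.1. These intervals cover counting error only.

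Barx1 followed a similar course. Wild-type libraries had 1, 0 and 0 reads at 8 weeks and 0, 0 and 2 at 25 weeks, and heterozygous libraries 0, 0 and 0 at 8 weeks. The heterozygous libraries at 25 weeks had 4 reads each. In βEedKO the reads were 19, 5 and 4 at 8 weeks (0.901, 0.251 and 0.346 CPM) and 216 and 544 at 25 weeks (16.4 and 21.9 CPM). Groups of βEedKO and wild-type libraries did not overlap at either age (βEedKO above for 6.54% of tested genes at 8 weeks and 24.7% at 25 weeks). The mean at 25 weeks was 19.2 ± 3.90 CPM (SD, n = 2). Its ratio to the 2 wild-type reads was 309, from 85.2 to 2554, and the ratio of 25 to 8 weeks within βEedKO was 37.6, from 25.8 to 57.0.

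Barx2 differed from these in control islets and in its time course. It had 2.54, 0.871 and 0.741 CPM in wild type at 8 weeks, from 40, 15 and 14 reads, and 1.31, 0.526 and 0.309 CPM at 25 weeks, from 6, 7 and 4 reads. In βEedKO it had 27.4, 7.07 and 7.87 CPM at 8 weeks, from 577, 141 and 91 reads, and 4.64 and 10.1 CPM at 25 weeks, from 61 and 251 reads. The βEedKO libraries were again above all control libraries of their age, but the 8-week ones were as high as the 25-week ones. Against wild type alone 6.54% of tested genes shared this at 8 weeks and 24.7% at 25 weeks. Heterozygous libraries spanned 0.626 to 1.24 CPM at 8 weeks and 0.490 to 1.81 CPM at 25 weeks, within or near the wild-type range.

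The highest Barx2 levels at 8 weeks, in wild type and in βEedKO, were those of replicate 1 of each genotype. The levels of these same-numbered libraries stood at 27.4 and 2.54 CPM, a ratio of 10.8, and those of replicates 4 at 7.07 and 0.741 CPM, a ratio of 9.54. The summed level of the 3 smooth muscle markers (Myh11, Acta2 and Cnn1) was also high in both replicates 1, at 105.0 CPM in wild type and 136.1 CPM in βEedKO, against 7.03 to 20.2 CPM in the other 4 libraries of these groups. Sums of the Schwann and neuron markers (56.0 and 57.7 CPM, against 22.7 to 33.2 CPM) were highest in both replicates 1 as well. So were those of the fibroblast and stellate, delta cell and acinar markers, while the alpha cell sum was lowest in both. The part of any of these cells in the Barx2 levels was not tested. Without βEedKO replicate 1 the fitted log2 difference at 8 weeks was 2.45, and without wild-type replicate 1 it was 4.08. At 25 weeks the same-numbered ratios were 3.55 for replicates 2 and 19.2 for replicates 3.

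Otx1 was read 0, 1 and 0 times in wild type at 8 weeks, 1, 1 and 0 times at 25 weeks, and at most 1 time in each heterozygous library. The βEedKO libraries had 0 reads each at 8 weeks, which allows up to 0.057 CPM over the group (3 reads), and 7 and 9 reads at 25 weeks, or 0.532 and 0.363 CPM. The 25-week βEedKO libraries were above all others, at 0.448 ± 0.120 CPM (SD, n = 2), and the ratio to wild type was 6.5, with a counting interval from 1.53 to 58.3. Among tested genes 24.7% had every βEedKO library above every wild-type library at this age.

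Pitx3 was read in 3 of the 16 libraries, with 2 reads in heterozygous replicate 3 at 8 weeks and 1 read each in heterozygous replicate 2 and βEedKO replicate 3 at 25 weeks. Otx2 was read 1 time, in βEedKO replicate 3 at 25 weeks. Neither gene was above 3 reads in any group, so no fold was computed. In single libraries 3 reads correspond to 0.121 to 0.654 CPM, and a lower level was not detectable at this depth.

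**Figure D2:**
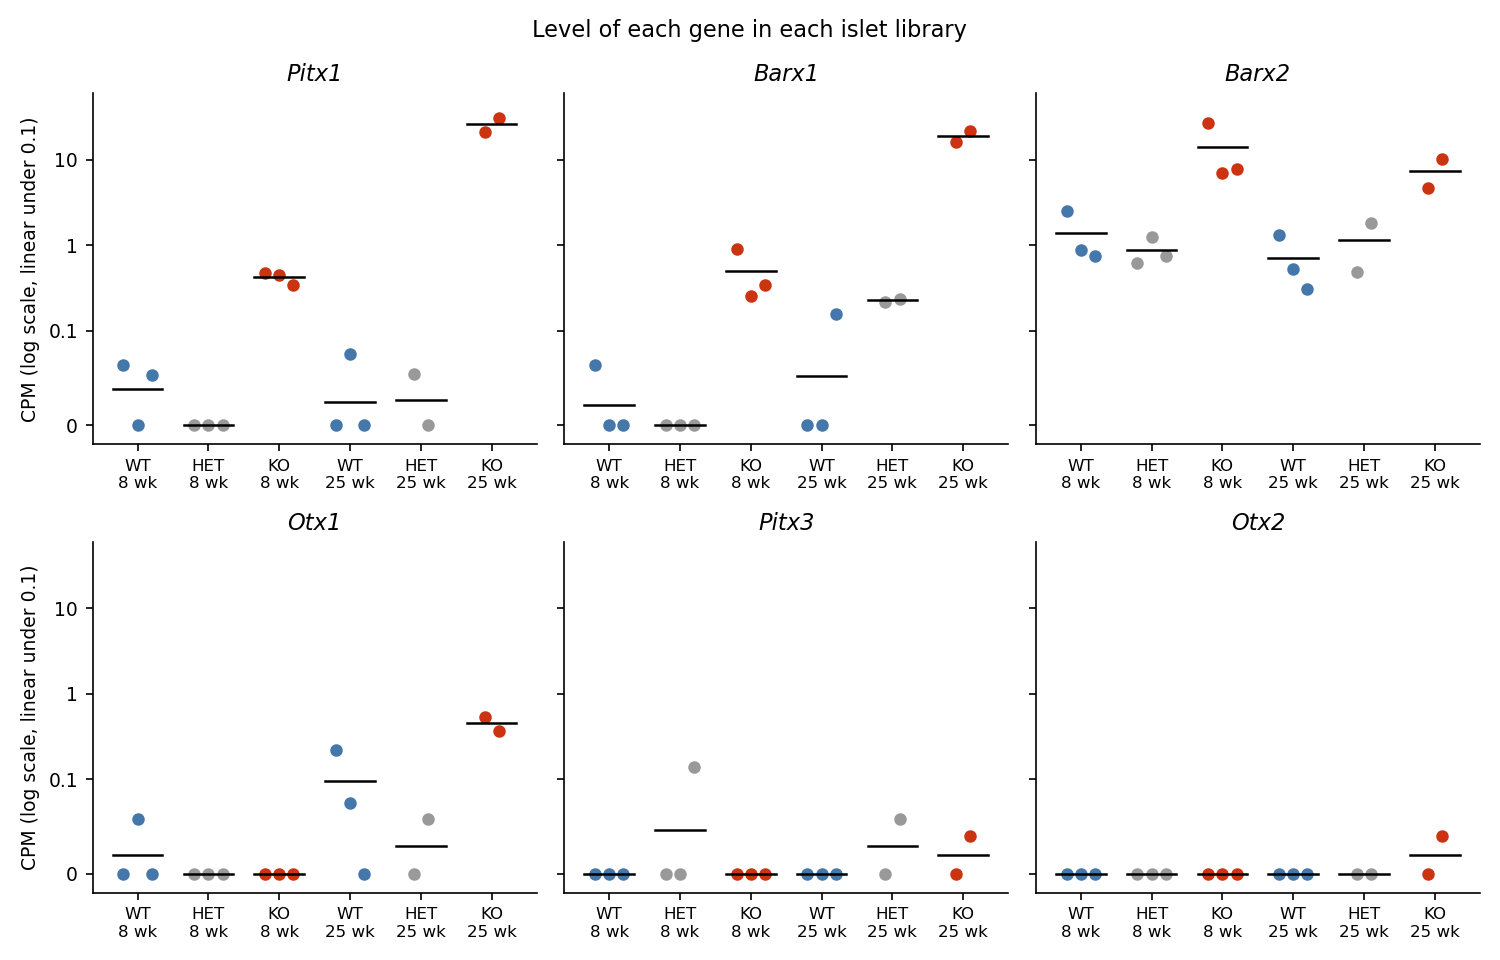
Level of each gene (y axis, CPM on a log scale that is linear under 0.1) in each of the 16 libraries, by genotype and age (WT, wild type; HET, heterozygous; KO, βEedKO); points are libraries and lines are group means. Pitx1 and Barx1 are highest in both 25-week KO libraries (21.2 and 31.0, and 16.4 and 21.9 CPM), Barx2 is high in KO at both ages, and Pitx3 and Otx2 stay near 0.

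Per length of annotated exon, the 25-week βEedKO libraries had the highest level for Barx1, 13.7 ± 2.79 CPM per kb, and for Pitx1, 9.83 ± 2.61 CPM per kb (SD, n = 2). Barx1 was above Pitx1 within both libraries, and the means differed by less than the sum of their SDs. Barx2 followed at 3.75 ± 1.97 CPM per kb, with a range below that of Pitx1, and then Otx1 at 0.0826 ± 0.022 CPM per kb. At 8 weeks the order was another. Barx2 led at 7.16 ± 5.84 CPM per kb, followed by Barx1 at 0.357 ± 0.251 and Pitx1 at 0.160 ± 0.026 CPM per kb (SD, n = 3). Barx1 was above Pitx1 within each of these 3 libraries, and the difference of the means was again within the SDs.

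In the edgeR fit over all genes the log2 difference between βEedKO and wild type at 25 weeks was 9.30 (SE 0.74) for Pitx1, 8.02 (SE 0.99) for Barx1 and 3.48 (SE 0.83) for Barx2. All 3 genes that passed the filter were past the threshold and higher, a call that 4.58% of 18685 genes shared (6.60% in either direction); with these genes picked for this contrast, the count says nothing further. With wild type at 1 or 2 reads, the values of Pitx1 and Barx1 depend on those reads: without wild-type replicate 3 the log2 difference of Pitx1 was 11.67, and without replicate 4 that of Barx1 was 11.23. The call on Barx2 was lost when same-numbered libraries were paired (log2 difference 3.06, leaving 2 of 3 called) and without wild-type replicate 3 (3.32), wild-type replicate 4 (3.06), βEedKO replicate 2 (3.92) or βEedKO replicate 3 (2.82). Every βEedKO library lay above every wild-type library at 25 weeks for 24.7% of genes.

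At 8 weeks the log2 differences were 3.23 (SE 0.68) for Pitx1, 4.23 (SE 1.03) for Barx1 and 3.36 (SE 0.72) for Barx2. None of the 3 was past the threshold in edgeR (0.434% of genes were), all 3 were under an unadjusted p of 0.05 (7.87% of genes) and DESeq2 called 2, Barx1 and Barx2. Groups did not overlap in the higher direction for 6.54% of genes. The heterozygous libraries gave another control, compared with the same βEedKO libraries. Against them all 3 genes were called at 8 weeks (3.60% of 18828 genes were called higher) and Pitx1 and Barx1 at 25 weeks (5.41%), where the log2 differences were 9.52 (SE 0.94) and 6.36 (SE 0.98) and Barx2 was at 2.69 (SE 0.89). With same-numbered libraries paired, 0 were called at 8 weeks and Pitx1 alone at 25 weeks. Without heterozygous replicate 1, 2 or 3 the 8-week count was 1, 0 or 1, and without heterozygous replicate 2 the 25-week count was 1.

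Between 8 and 25 weeks within βEedKO, the log2 difference was 5.85 (SE 0.56) for Pitx1 and 5.17 (SE 0.78) for Barx1, both called (1.02% of genes were called higher), and -0.97 (SE 0.75) for Barx2. The Barx2 value was -0.07 without βEedKO replicate 1 of 8 weeks, the library with the highest Barx2 level, -0.54 without βEedKO replicate 2 of 25 weeks and -1.62 without replicate 3. Leaving out βEedKO replicate 4 or 5 at 8 weeks, or either βEedKO library at 25 weeks, left Pitx1 as the single call. The change with age in the difference between βEedKO and wild type was 6.07 (SE 1.40) for Pitx1, 3.79 (SE 2.31) for Barx1 and 0.12 (SE 1.00) for Barx2 on the log2 scale, and 0 of the 3 were called (0.198% of genes were).

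The comparisons of heterozygous with wild-type islets, and of the ages within wild type, were not used to choose the genes and could be tested. Barx2 differed between heterozygous and wild type by a log2 value of -0.63 (SE 0.72, adjusted p = 0.689) at 8 weeks and 0.85 (SE 0.86, adjusted p = 1) at 25 weeks, and between 25 and 8 weeks in wild type by -1.12 (SE 0.79, adjusted p = 0.509), in edgeR with Benjamini-Hochberg adjustment over all genes. The 2 signs of the heterozygous comparison each turned when 1 library was left out, to 0.06 without wild-type replicate 1 at 8 weeks and to -0.36 without heterozygous replicate 2 at 25 weeks. For Barx1 the 8 heterozygous against 2 wild-type reads at 25 weeks gave a ratio of 3.47, from 0.693 to 33.6 (log2 difference 1.71, SE 1.10, adjusted p = 1). Since both wild-type reads came from replicate 4, this log2 value was 4.96 without that library, 1.03 without wild-type replicate 3, and 5.29 with same-numbered libraries paired. All other comparisons of Pitx1 and Barx1 were between groups of at most 3 reads.

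Barx2, with reads in every library, was not called in these comparisons by edgeR or DESeq2, and its unadjusted p was above 0.05 in each. Pitx1 and Barx1, also not called, had passed the filter through their βEedKO reads, and with so few reads here their missing calls say nothing. Over all 18828 genes edgeR called 0% in either heterozygous comparison, with 2743 genes (14.6%) at 8 weeks and 210 (1.12%) at 25 weeks under an unadjusted p of 0.05, and DESeq2 called 400 and 1. Without wild-type replicate 1 the 8-week count was 601, none of them a member. Between the ages in wild type edgeR called 4 genes (0.0212%), with 14.2% under an unadjusted p of 0.05, and DESeq2 called 234.

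Marker genes of several islet and exocrine cell types differed in level between these groups as well. The 5 β cell markers summed to 13812 and 17112 CPM in the 25-week βEedKO libraries, against 121734 to 217833 CPM in wild type of that age. Sums of the 5 fibroblast and stellate markers were 280.2 and 181.4 CPM, against 66.2 to 93.9 CPM, with 3 called higher (Col1a1, Pdgfra and Dcn). Those of the 4 duct markers were 124.2 and 129.0 CPM, against 12.3 to 64.7 CPM, with 2 called higher (Krt19 and Sox9). Of the 3 alpha cell markers 1 (Irx2) was called higher. Over all tested genes 4.58% were called higher. Start sites of Col1a1, Pdgfra and Dcn lay in bivalent state M, those of Sox9 and Irx2 in bivalent state L, and that of Krt19 in state X. Macrophage and leukocyte markers summed to 104.8 and 66.4 CPM, against 30.8 to 37.5 CPM, with 1 of 4 (Ptprc) called higher. Smooth muscle markers were at 30.0 and 66.3 CPM, against 10.9 to 17.9 CPM, with 0 of 3 called. Acinar markers took 247861 CPM in βEedKO replicate 2 and 8358 CPM in replicate 3. Pitx1, Barx1 and Barx2 were each higher in replicate 3 than in replicate 2. The part of any of these cells in the levels of the homeobox genes was not tested, and in whole islets a change in cell number cannot be told apart from a change in RNA per cell. Of 3 pituitary markers (Pou1f1, Gh and Prl) 0 passed the filter, and their sum was at most 0.173 CPM in any library. As a check of the labels, Eed stood at 19.2 to 33.1 CPM in wild type, 16.3 to 20.5 CPM in heterozygous and 13.4 to 15.6 CPM in βEedKO libraries, with log2 differences between βEedKO and wild type of -1.04 (SE 0.22, adjusted p = 0.0881) at 8 weeks and -0.69 (SE 0.25, adjusted p = 0.142) at 25 weeks in edgeR. These counts cover the whole gene and all cells of the islet. Depth ranged from 4645393 to 22925359 reads per library.

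Other genes with bivalent start sites give the setting for these levels. Among tested genes 27.2% of those with a start site in state M and 14.2% of those in state L were called higher. Of autosomal genes under 0.1 CPM in 25-week wild type, both βEedKO libraries reached 1 CPM for 16.4% (128 of 779) in state M, 10.9% (51 of 466) in state L and 0.478% (37 of 7736) in all other states. Pitx1, Pitx3, Barx1, Otx1 and Otx2 met the first condition, and Pitx1 and Barx1 the second. Among the 1245 such genes in states L and M the median level in βEedKO at 25 weeks was 0.141 CPM. Of these genes 99.6% were below Pitx1, 99.0% below Barx1 and 69.7% below Otx1, and 20.2% were listed at 0 reads. The members were listed with their βEedKO levels known, so these ranks are descriptions and not tests.

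**Figure D3:**
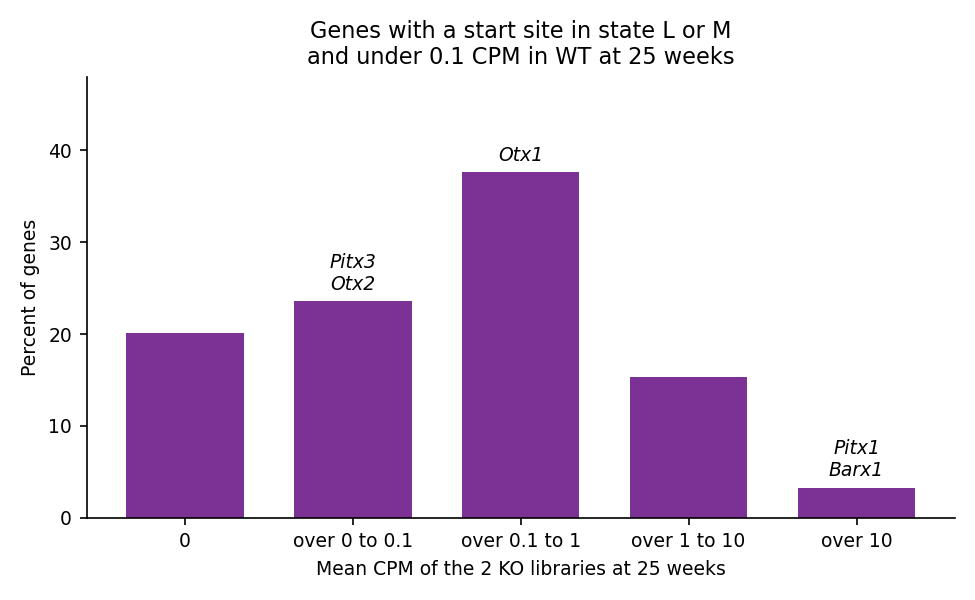
Share of the 1245 genes with a start site in state L or M and under 0.1 CPM in wild type at 25 weeks (y axis, percent) by their mean level in the 2 βEedKO libraries of that age (x axis, CPM); names mark where 5 of the homeobox genes fall. Pitx1 and Barx1 fall in the class over 10 CPM, which holds 3.29% of the genes, and Otx1 in the most populated class. The homeobox genes were listed with these levels known.

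Neighbours could be tested for Pitx1, Pitx3 and Barx1 only. Within 200 kb of the start sites of the 6 genes lay 66 annotated genes, 19 of them protein-coding. Of the 66, 19 were tested (16 of them protein-coding), and 0 were called higher or lower at either age. Over all genes 6.60% were called at 25 weeks and 0.434% at 8 weeks. For so few genes 0 calls is close to these shares and says little about the neighbours. Barx2, Otx1 and Otx2 had 0 tested neighbours. Near Pitx1, B230219D22Rik was at 73.5 CPM in wild type and 75.3 CPM in βEedKO at 25 weeks, Txndc15 at 47.2 and 34.9 CPM and Pcbd2 at 9.02 and 8.07 CPM, with Catsper3 too low to test. Next to Barx1, Ptpdc1 was at 30.6 and 19.2 CPM and Zfp169 at 7.12 and 6.99 CPM. Around Pitx3 the range of the 11 tested protein-coding genes ran from Hps6 (6.27 and 6.83 CPM) to Gbf1 (159.1 and 98.2 CPM), whose active start site lies 4183 bp upstream of that of Pitx3. Elovl3, which overlaps the 3′ end of Pitx3, was too low to test at 0.203 and 0 CPM. Otx1, Otx2 and Barx2 had no protein-coding neighbour start in this window. The overlapping transcripts Gm28760 (at Pitx1) and Otx2os1 (antisense to Otx2) were at 0.141 and 0 CPM in 25-week βEedKO islets, and the antisense transcripts Gm47071 (Pitx1) and Gm31497 (Barx2) were not in the counts. Since strand use in counting is not stated, reads of a gene and of an overlapping or antisense partner cannot be told apart.

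Related genes outside the list differed among themselves. Of 6 related homeobox genes 4 passed the filter and 2 were called higher at 25 weeks, Barhl2 and Bsx, which act in the developing brain. Barhl2 had 0 reads in each 25-week wild-type library and 2.89 and 5.12 CPM in βEedKO, at least 44.7-fold higher against 3 reads over the group (adjusted p = 0.0189), and Bsx had 0 reads and 12.6 and 7.95 CPM, at least 98.3-fold higher (adjusted p = 0.00359). The call on Barhl2 was lost with pairing (adjusted p = 0.0739) and without wild-type replicate 3 or 4 or either βEedKO library. Both genes passed the filter only through βEedKO libraries. Their calls and adjusted p-values, and the count over the genes that passed, are thus descriptions and not tests. The start sites of both genes lay in bivalent state M. Gsc and Crx did not pass the filter; Gsc had 8 and 13 reads in βEedKO and 0 in wild type, and Crx 0 reads in all 16 libraries. Dmbx1 was at 0.836 and 1.05 CPM against 0 to 0.218 CPM and was not called (adjusted p = 0.215).

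Barhl1, known from neurons of the cerebellum and the inner ear and with a start site in bivalent state M, ran the other way in time. At 8 weeks it was at 0.761, 0.174 and 0.688 CPM in wild type and 12.6, 6.01 and 6.66 CPM in βEedKO and was called higher (log2 difference 3.94, SE 0.53, adjusted p = 0.0116). In wild type at 25 weeks it was at 6.97, 8.95 and 8.19 CPM, so it rose with age in wild-type islets, by a log2 value of 3.88 (SE 0.49, adjusted p = 0.0384), and it was 1 of the 4 genes called between the ages. At 25 weeks the βEedKO libraries, at 2.74 and 4.68 CPM, lay below the wild-type ones (log2 difference -1.17, SE 0.54, adjusted p = 0.254). The 8-week call was lost with pairing (adjusted p = 0.176) and without wild-type replicate 4, and the age call with library size alone (adjusted p = 0.0675) and without wild-type replicate 3 or 4 of either age.

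**Figure D4:**
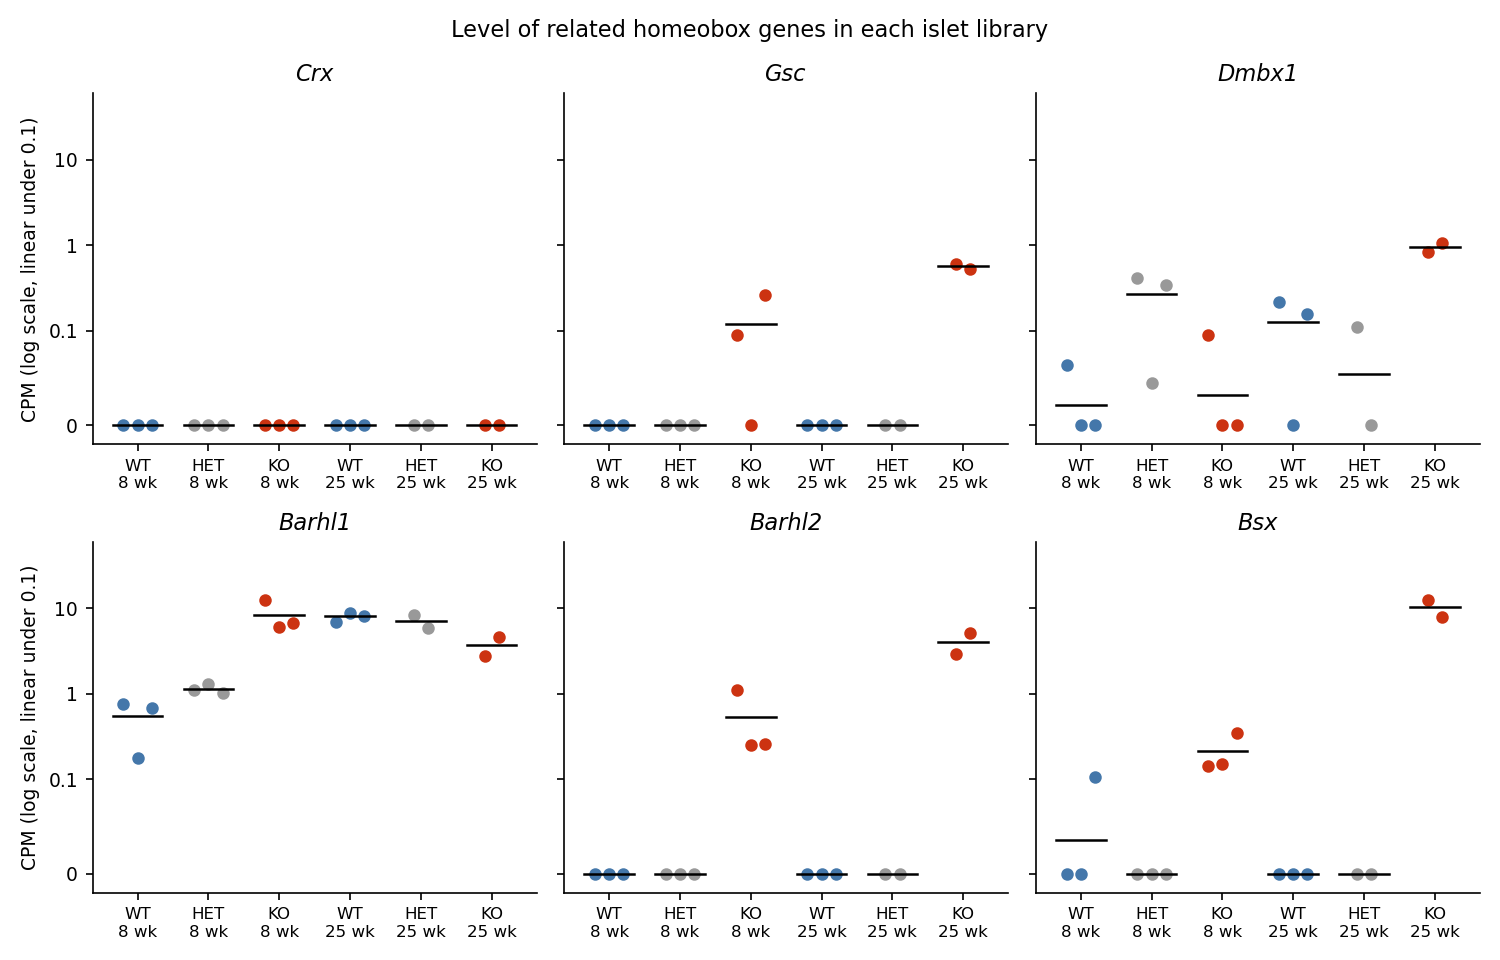
Level of 6 related homeobox genes (y axis, CPM on a log scale that is linear under 0.1) in each of the 16 libraries, by genotype and age (WT, wild type; HET, heterozygous; KO, βEedKO); points are libraries and lines are group means. Bsx is near 0 outside the 25-week KO libraries and Crx is at 0 in all 16, while Barhl1 is high in 8-week KO and in 25-week WT and HET libraries.

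Of the genes that the factors are known to act on or with, many were too low to test, and 6.60% of all tested genes were called at 25 weeks. Genes with 0 wild-type reads passed the filter only through βEedKO libraries. Their calls and adjusted p-values, and the counts and medians of these lists, are thus descriptions and not tests. The median over all genes was 0.03. Of 14 genes linked to Pitx factors 5 passed the filter at 25 weeks, with 1 called higher and 1 lower (median log2 difference 0.64). Slc6a3, the dopamine transporter, had 0 reads in every wild-type and heterozygous library and 1.67 and 1.69 CPM in 25-week βEedKO, at least 17.3-fold higher than wild type (adjusted p = 0.0225). Th, the rate-limiting enzyme of dopamine synthesis, was at 11.7 and 8.51 CPM in βEedKO against 39.7 to 50.3 CPM in wild type (log2 difference -2.17, SE 0.37, adjusted p = 0.00723). The call on Slc6a3 was lost with pairing (adjusted p = 0.137) and without wild-type replicate 3 or 4 or either βEedKO library, and that on Th without βEedKO replicate 3 (log2 difference -1.95, adjusted p = 0.0845). Both genes are textbook targets of Pitx3 in dopamine neurons, and Pitx3 itself was within 1 read in these groups. The start site of Slc6a3 lay in bivalent state L and that of Th in state K. At 25 weeks 14.2% of tested genes in state L and 27.2% in bivalent state M were called higher. Any part of the members in the levels of the listed genes was not tested.

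For Otx factors 6 of 12 genes passed and Six3, a forebrain and eye homeobox gene, was called at both ages (median log2 difference -0.26 at 25 weeks). Six3, with a start site in bivalent state M, had 0 reads in every wild-type library. In βEedKO it was at 1.04, 0.702 and 0.692 CPM at 8 weeks, at least 14.5-fold higher (adjusted p = 0.0188), and at 35.4 and 30.3 CPM at 25 weeks, at least 329.6-fold higher (adjusted p = 0.000443). Pairing ended the 8-week call (adjusted p = 0.379), as did leaving out wild-type replicate 3 or 4 or βEedKO replicate 4 or 5. Of 7 genes linked to Barx factors 5 passed and 0 were called, with 1.5 as the median log2 difference. Highest was Nkx3-2 (start site in state M), with 0 wild-type reads and at least 15.4-fold higher (adjusted p = 0.0899). Lowest was Ncam1 (state B) at -0.06 (SE 0.22).

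Over the 16 libraries, the genes whose centred log2 CPM differed least from that of Pitx1 were Pou3f3, Six3 and Nkx2-5, with root mean square differences of 0.476, 0.483 and 0.484, against an SD of 2.55 for Pitx1 itself. For Barx1 they were Pou3f3 (0.542), Hoxc9 (0.565) and Foxd1 (0.576), against an SD of 2.39. All of these are transcription factor genes near 0 in control islets. Barx2 had looser matches, Gm266 (0.701), Clec2l (0.736) and Opcml (0.768), against an SD of 1.75, and their means in βEedKO at 8 weeks, 1.13, 2.06 and 2.66 CPM, were not far from those at 25 weeks, 0.725, 1.5 and 4.96 CPM. These are descriptions over libraries that share the same genotype contrast, among 18828 genes.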

How the data were processed

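The 6 genes, the gene lists and the tests were chosen with earlier results of these data known. For 16 poly-A libraries the authors deposited unnormalised read counts by gene, made with TopHat2 2.0.13 on GRCm38 and featureCounts (Subread 1.5.0-p1) on Gencode gene models; strand use is not given in the sources used here. The authors deposited the wild-type segmentation as state letters (EpicSeg). No count column was left unused (0). The single-cell, ChIP-seq signal and human data of the study were not analysed here.

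Of 47937 identifiers, 47224 were matched to symbols and positions of a later annotation of the same build and 713 were not. Total counts were 4645393 to 22925359, and floors of 3 reads and 95% intervals cover counting error only. In R 4.3.3, edgeR 4.0.16 (TMM, filterByExpr by group, quasi-likelihood test, Benjamini-Hochberg adjusted p under 0.05) was fitted to 11 wild-type and βEedKO libraries (18685 genes) for contrasts of these groups and to all 16 (18828 genes) for those with heterozygous libraries and for age in wild type; DESeq2 1.42.0 was an alternative. SE is the absolute log2 difference over the square root of F. The code was tested on simulated counts. CPM used the TMM factors of all 16 libraries. No library repeated another (chi-square per degree of freedom at least 31.03).

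Named genes are all 6 members, genes of the lists past the threshold or at a list's extremes, protein-coding or overlapping neighbours within 200 kb, and the 3 closest genes by root mean square difference of centred log2 CPM (prior count 2).

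Wild-type and βEedKO libraries that share a number and an age had correlated deviations from group means (r = 0.457 and 0.163 for replicates 1 and 4 at 8 weeks, 0.176 and 0.255 for replicates 2 and 3 at 25 weeks, over 18828 genes), so a fit with the number as a block was run. Some differently numbered pairs were as close (βEedKO replicate 5 with wild-type replicates 3 and 4 at 8 weeks, r = 0.450 and 0.329), and others ran from -0.528 to 0.022; the labels do not say what the numbers mark, and heterozygous and wild-type pairs reached 0.161, 0.080 and 0.092. Other alternatives were library size alone, no expression filter, a pooled wild-type and heterozygous control, leaving out each library, and the state 200 bp to each side or at other transcript starts. Some genes of the lists are not reported here.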

Additional observations from a re-analysis of the deposited data

Results flagged for a closer look

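The difference between βEedKO and wild type in Barhl1, a related homeobox gene, differed between the ages: the log2 difference at 25 weeks minus that at 8 weeks was -5.12 (SE 0.77, adjusted p = 0.0348 in edgeR). The adjusted p ranged from 0.00545 to 0.231 over 14 alternatives added after seeing the data. It passed the threshold in 3 of them (no expression filter, without wild-type replicate 1 or 3 at 8 weeks) and not in the other 11, among them pairing by replicate number (-4.77, adjusted p = 0.124), with the same sign in each. No member was flagged: groups of 2 or 3 libraries are not screened for a library that stands apart.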

How the results depend on the processing

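At 8 weeks the 3 tested members were not called between βEedKO and wild type, and this depended on the settings: 1 was called with no expression filter, 2 by DESeq2, and 3 with all non-βEedKO libraries of the age as a single control group or, in a setting added after seeing the data, with the replicate block and library size alone. At 25 weeks 3 were called, 2 with the replicate block, and 2 to 3 when 1 library was left out. Comparisons of βEedKO with heterozygous libraries under these settings were also added after seeing the data. With the replicate block 0 instead of 3 were called at 8 weeks and 1 instead of 2 at 25 weeks, and 0 to 3 and 1 to 2 without 1 library. Between the ages in βEedKO 2 were called, and 1 to 2 without 1 library. A fit with fewer libraries or with the block has fewer degrees of freedom. With the same block, library size alone called 3 members between βEedKO and wild type at 8 weeks, and TMM scaling 0. The cause of a lost call was not tested. No count of members changed in the other comparisons (heterozygous against wild type, wild-type ages), and the block changed no other call of a member; it could not be fitted between ages, since the numbers are nested in age. The state at the start site was L or M for 6 of 6 genes at 200 bp to either side and at some annotated transcript start, and for 5 at every annotated transcript start, since 1 of 3 of Pitx3 lay in state N. The letter itself changed for Barx1 at 200 bp upstream (M) and for Otx1 at 2 transcript starts (L).

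Signs turned for Barx2 between heterozygous and wild type, whose values without 1 library ran from -0.98 to 0.064 at 8 weeks and from -0.36 to 1.51 at 25 weeks. Library size alone moved the median log2 difference of all genes from 0.03 to 0.26 at 25 weeks and from 0.00 to 0.20 at 8 weeks, and the calls at 25 weeks from 856 higher and 378 lower to 803 and 79. The members' log2 differences at 25 weeks were then 9.61, 8.37 and 3.87. Depth limits Pitx3, Otx1 and Otx2, which have at most 9 reads in any library. Over all genes the calls between βEedKO and wild type at 25 weeks numbered 1234, against 2049 with DESeq2, 2974 with the single control group, 1990 with the block and library size alone and as few as 391 without 1 library. At 8 weeks they numbered 81, against 376, 423, 266 and 18 in the same settings, 137 with no expression filter and 0 with the replicate block. Against heterozygous libraries 893 genes were called at 8 weeks and 1574 at 25 weeks, with the replicate block 1 and 429, with library size alone 505 and 911, and with DESeq2 2253 and 2658; between the ages in βEedKO the calls were 281, 168 with library size alone and 938 with DESeq2.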
